A study of Mus musculus with 30 samples.

Results

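The genes described here are the 4 myogenic regulatory factors, Myf5, Myod1, Myog and Myf6, together with Mef2c, Mymk, Cdh15 and Rbm24. They were chosen by name, with earlier results of these data known, for their role in the start of skeletal myogenesis and in myoblast fusion. They are 8 of the 50833 genes counted in the series, of which 20569 were annotated as protein-coding. The series measured polyadenylated RNA in mouse forelimb buds after WNT signalling had been blocked with Wnt-C59 (C59). C59 inhibits porcupine, the enzyme that lipid-modifies WNT ligands so that they can leave the cell.

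Wild-type Swiss Albino females were injected intraperitoneally at E10.5 of gestation with C59 or with its solvent DMSO, and forelimb buds were collected 1, 6, 12, 18 and 24 h later. The C59 solution also held methylcellulose and Tween-20, which the paper does not list for the control solution of DMSO in PBS. No transgene or mutant allele was used, and the DMSO embryos served as the wild-type controls. Each of the 10 groups held 3 libraries, and each library came from 1 pair of forelimb buds of an embryo, so all cell types of the bud were sampled together. Bulk RNA of this kind cannot tell fewer cells of a type from less RNA per cell.

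The myogenic regulatory factors are basic helix-loop-helix transcription factors that pair with E proteins and bind the E-box, written CANNTG. In the limb, muscle progenitors leave the somite with Pax3 and Lbx1 on, migrate into the bud, and then turn on Myf5 and Myod1, which commit them to muscle. Myog drives their differentiation, Myf6 (also called Mrf4) acts both early in the somite and late in the fibre, and Mef2c encodes a MADS-box factor that works beside them on muscle genes. Mymk encodes myomaker, a membrane protein that myoblasts need to fuse, Cdh15 encodes M-cadherin, an adhesion protein of myoblasts, and Rbm24 encodes an RNA-binding protein that regulates the splicing and stability of muscle transcripts.

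All 8 genes are annotated as protein-coding, and their positions are given for mm10 in GENCODE coordinates. Myf5 (ENSMUSG00000000435) lies at chr10:107482908-107486134 on the minus strand, and Myf6 (ENSMUSG00000035923) at chr10:107492853-107494737 on the same strand, with 6719 bases between them. Myod1 (ENSMUSG00000009471) lies at chr7:46376474-46379099 on the plus strand, Myog (ENSMUSG00000026459) at chr1:134289989-134292548 on the plus strand, and Mef2c (ENSMUSG00000005583) at chr13:83504034-83667080 on the plus strand. Mymk (ENSMUSG00000009214) lies at chr2:27061636-27072179 on the minus strand, Cdh15 (ENSMUSG00000031962) at chr8:122847966-122867397 on the plus strand and Rbm24 (ENSMUSG00000038132) at chr13:46418434-46431095 on the plus strand. Cdh15 lies inside a long annotated gene on the same strand that was not counted, so how its reads were assigned there was not tested.

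RefSeq promoter windows were found for 5 of the 8 genes (build GRCm38.p6, the same assembly as mm10). The 250 bases before the RefSeq start are printed for Myf5, Myog and Rbm24. Of the genes with a window, these had a C59 difference past both thresholds used below, Myog and Rbm24 upward and Myf5 downward. Myod1 and Mymk, also past both thresholds and upward, had no window. Capitals mark E-boxes (CANNTG, which reads the same on both strands), and positions count back from -1 at the base before the start.
Myf5, chr10:107486135-107486384, minus strand: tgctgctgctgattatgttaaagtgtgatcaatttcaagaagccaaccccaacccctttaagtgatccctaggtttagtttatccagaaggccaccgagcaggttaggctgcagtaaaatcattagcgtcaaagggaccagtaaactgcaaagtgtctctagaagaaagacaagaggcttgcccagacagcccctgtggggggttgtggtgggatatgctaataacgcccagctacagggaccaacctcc
Myog, chr1:134289754-134290003, plus strand: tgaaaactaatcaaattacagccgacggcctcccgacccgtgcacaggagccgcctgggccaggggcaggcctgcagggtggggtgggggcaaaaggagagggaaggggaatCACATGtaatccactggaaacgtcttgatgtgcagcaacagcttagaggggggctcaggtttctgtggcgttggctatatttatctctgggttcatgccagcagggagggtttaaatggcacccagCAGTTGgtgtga
Rbm24, chr13:46418050-46418299, plus strand: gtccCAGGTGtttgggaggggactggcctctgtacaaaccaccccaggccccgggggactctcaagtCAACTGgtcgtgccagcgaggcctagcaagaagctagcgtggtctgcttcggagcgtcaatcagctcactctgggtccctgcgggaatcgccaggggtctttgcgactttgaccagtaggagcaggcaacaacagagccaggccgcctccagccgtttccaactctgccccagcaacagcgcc
The Myog window held 2 E-boxes, at -138 to -133 (CACATG) and at -12 to -7 (CAGTTG), and the Rbm24 window held 2, at -246 to -241 (CAGGTG) and at -183 to -178 (CAACTG). The Myf5 window held none. An E-box was present in 66.2% of all 32851 promoter windows of this length, so its presence alone sets no gene apart. The core letters of the TCF/LEF element, CTTTGA on either strand, were found in the Rbm24 window at -77 to -72 and, on the reverse strand, in the Myf5 window at -122 to -117, as they were in 13.8% of all windows. CAGCTG, the E-box form preferred by MYOD1 and present in 13% of windows, was found in none of the 7 windows of the 5 genes. Nor was the strict MEF2 consensus, YTAWWWWTAR (Y is C or T, W is A or T, R is A or G), present in 2.92% of windows. The Myog window held ctatatttat, which misses that consensus only at its last base. Such matches describe letters and are not evidence of binding.

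Some libraries stood apart from the others of their group. Counts of replicate pairs differed by a chi-square per degree of freedom of 3.31 to 42.2, and the pairs above 20 were those with DMSO 1 h replicate 1, DMSO 6 h replicate 1, DMSO 18 h replicate 1, C59 18 h replicate 3 or C59 24 h replicate 2. Results that rest on these libraries are given below with and without them.

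The libraries held 18188636 to 38974885 counts each, with a median of 21597120, and the 8 genes together took 32.5 to 356.2 CPM (the count scaled to a common library size). Levels of single genes are given as CPM after further scaling for library composition, and as FPKM, which divides by transcript length, where different genes are compared. Axin2, a direct target of canonical WNT signalling, served as the check of the drug. It stood at 108, 118 and 104 CPM in the 3 DMSO libraries and 29.0, 29.2 and 26.5 CPM in the 3 C59 libraries at 6 h, and at 112, 110 and 110 CPM (DMSO) against 38.9, 38.6 and 43.7 CPM (C59) at 12 h. The groups did not overlap at either time. At 1 h Axin2 stood at 122 to 126 CPM in DMSO and 105 to 111 CPM in C59. At 18 h it stood at 109 to 111 CPM in DMSO and 89.1 to 105 CPM in C59, and these ranges did not overlap either. By 24 h the Axin2 ranges overlapped, at 107 to 118 CPM for DMSO and 99.2 to 114 CPM for C59.

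Expression differences were tested with edgeR's quasi-likelihood F test, time by time, on protein-coding autosomal genes that passed a filter on low counts. A gene is said to have risen or fallen where its Benjamini-Hochberg adjusted p was below 0.05, and is called past both thresholds where its log2 fold change also exceeded 1 in size, the limits that the study used. Of the 8 genes, Myf6 passed the filter in no comparison and Mymk did not pass it at 1 h, so 6 genes were tested at 1 h and 7 at each later time. Each p measures the spread between 3 embryos per group, which came from several litters.

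In DMSO forelimb buds most of these genes climbed steeply over the day. From 1 h to 24 h, Mymk rose with a log2 fold change of 5.12 ± 0.23 (SE), Myod1 of 4.25 ± 0.11, Myog of 3.86 ± 0.19, Rbm24 of 2.86 ± 0.12, Cdh15 of 2.80 ± 0.09 and Mef2c of 1.76 ± 0.07, whereas Myf5 rose by only 0.62 ± 0.11 (edgeR adjusted p at most 3.01e-04 for all 7). Thus 6 of 7 passed both thresholds, against 12.0% of the 13580 genes tested, and 7 of 7 had an adjusted p below 0.05, against 59.3%. At 6 h the DMSO means stood at 91.4% of the DMSO 24 h mean for Myf5, 32.5% for Mef2c, 28.8% for Rbm24, 24.2% for Cdh15, 19.9% for Myod1, 11.4% for Myog and 8.39% for Mymk.

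The steps between successive DMSO times differed between the genes. From 1 h to 6 h, 3 of 7 genes passed both thresholds (Myod1, Mymk and Rbm24, against 0.702% of all genes tested) and 5 rose (against 5.67%). Without DMSO 6 h replicate 3 the Rbm24 log2 fold change dropped to 0.95, and Mymk lost its adjusted p (0.0382) without any 1 of the 6 libraries (0.0719 to 0.132), its counts at 1 h being only 5 to 8 in DMSO. The adjusted p of Myf5 (main value 0.0253) reached up to 0.106 and that of Cdh15 (0.0152) up to 0.0729 when 1 of these libraries was left out, beyond the threshold without DMSO 1 h replicate 1 or 2 for both genes and without DMSO 6 h replicate 3 for Myf5. From 6 h to 12 h only Myog passed both thresholds (1 of 7, against 0.468%), with Myod1 and Cdh15 also rising (3 of 7, against 2.97%). Cdh15 (0.96) passed the fold threshold as well without DMSO 6 h replicate 2 (1.12), DMSO 12 h replicate 1 (1.00) or DMSO 12 h replicate 3 (1.02). That Myog step rested on DMSO 12 h replicate 2, without which its log2 fold change was 0.64 in place of 1.11, and its adjusted p rose to between 0.0634 and 0.149 without any 1 of the DMSO 6 h libraries or without DMSO 12 h replicate 1.

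From 12 h to 18 h, Myog and Mymk passed both thresholds (2 of 7, against 1.31%) and all but Myf5 rose (6 of 7, against 7.35%). Myod1 (0.94) passed the fold threshold as well without DMSO 12 h replicate 2 (1.06). The Myog step lost its adjusted p without DMSO 12 h replicate 1 (0.0716) or replicate 3 (0.0534), and the Mef2c step, at 0.0488, reached up to 0.204 without DMSO 12 h replicate 1 or 3 or DMSO 18 h replicate 2 or 3. From 18 h to 24 h, 0 of 7 passed both thresholds by edgeR or by DESeq2, against 1.29%, although 6 of 7 had an unadjusted p below 0.05 and the same number rose, against 9.69%. Mymk was nearest the fold threshold there, at 0.94, and passed it without DMSO 18 h replicate 2 (1.03) or DMSO 24 h replicate 2 (1.04). For Cdh15 and Rbm24 the adjusted p of this last step went up to 0.0513 and 0.0748 without DMSO 18 h replicate 3 or DMSO 24 h replicate 3, and for Rbm24 also without DMSO 18 h replicate 2. With all 30 libraries in a single edgeR fit, the adjusted p of the step was 0.0884 for Myog, 0.169 for Cdh15 and 0.0656 for Rbm24.

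Compared per length, the order of the genes changed during that day. At 1 h in DMSO, Mef2c (3.67 ± 0.908 FPKM, SD), Myog (3.33 ± 1.59) and Myf5 (2.83 ± 0.162) were highest and their ranges overlapped, and Myod1 followed at 1.44 ± 0.157 FPKM. At 24 h in DMSO, Myog led with 51.1 ± 3.17 FPKM, ahead of Myod1 at 29.6 ± 3.09 FPKM and Mef2c at 12.8 ± 1.26 FPKM, with no overlap between these neighbours. Cdh15 (8.88 ± 0.388 FPKM) and Rbm24 (7.98 ± 1.2 FPKM) overlapped each other, as did Mymk (5.50 ± 0.873 FPKM) and Myf5 (4.64 ± 0.452 FPKM). Myf6 was last, at 0.0447 ± 0.0516 FPKM (n = 3 throughout). In C59 at 12 h the order of the means was the same except that Rbm24 (6.89 ± 0.736 FPKM) stood before Cdh15 (6.11 ± 0.750 FPKM), and both neighbours in the run from Mef2c (7.01 ± 1.71 FPKM) through Rbm24 to Cdh15 overlapped.

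**Figure D1:**
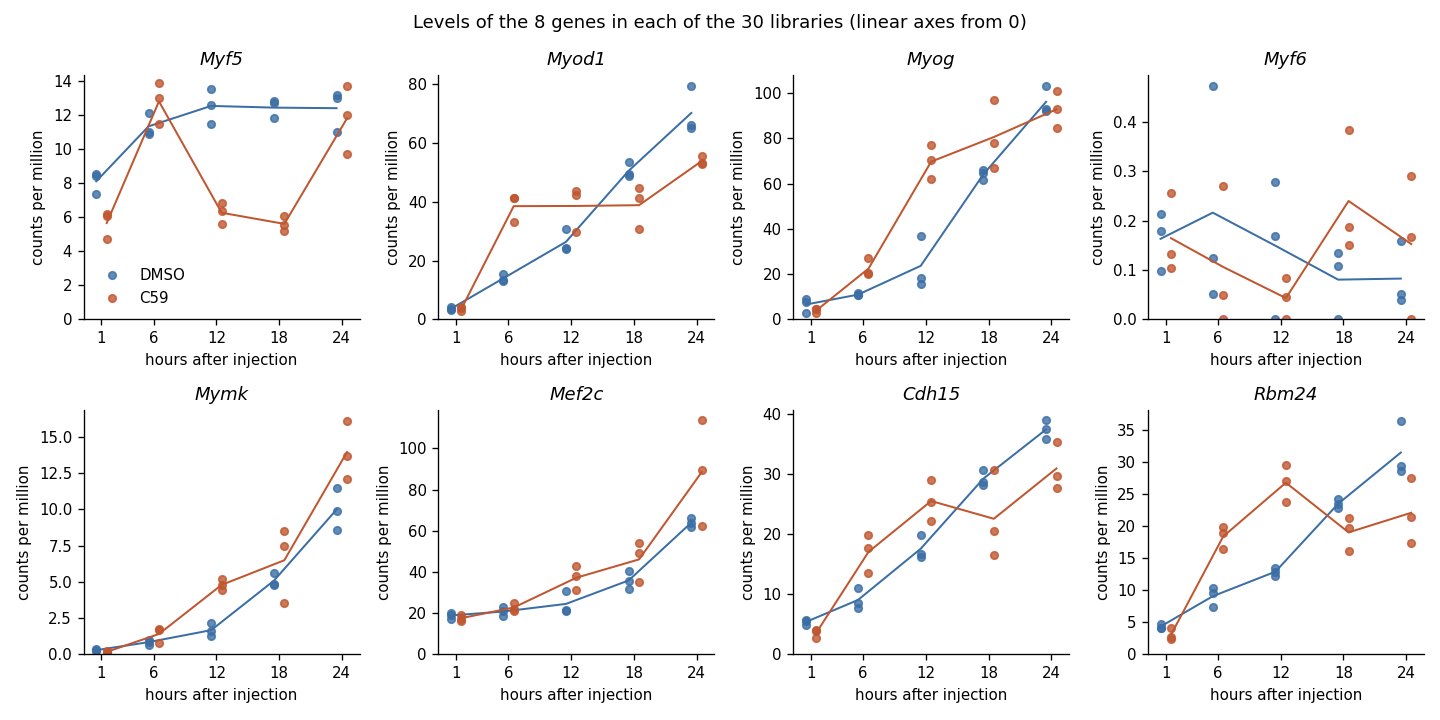
Levels of the 8 genes in CPM (vertical axes, linear and starting at 0, 1 scale per gene) against hours after injection. Each point is 1 library, blue for DMSO and orange for C59, and lines join the means of 3 libraries. Myod1, Myog, Cdh15 and Rbm24 stand above their controls at 6 h in C59, Myf5 stands at 5.61 to 6.81 CPM at 12 h against 11.5 to 13.5 CPM in DMSO, and Myf6 is at most 0.472 CPM.

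The response to C59 had 2 directions within this set. At 6 h Myod1, Myog, Cdh15 and Rbm24 rose, at 12 h these 4 rose together with Mymk and Mef2c, and Myf5 fell at 12 h and 18 h. At 24 h no difference passed both thresholds.

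At 1 h, 0 of 6 genes tested passed both thresholds by edgeR or by DESeq2, against 0.283% of 13076 genes, and 0 had an adjusted p below 0.05, against 2.75%. The unadjusted p was below 0.05 for 4 of them, all lower in C59, and the 6 genes had a median log2 fold change of -0.52 where all genes had 0.00. Myf5 (4.71 to 6.20 CPM in C59, 7.37 to 8.53 CPM in DMSO) and Cdh15 (2.79 to 4.0 CPM against 4.82 to 5.73 CPM) did not overlap, as did not 22.0% of all genes. Their log2 fold changes were -0.52 ± 0.14 for Myf5 (adjusted p = 0.0646) and -0.59 ± 0.17 for Cdh15 (adjusted p = 0.0847). With no filter or with all 30 libraries in a single fit, Myf5 had an adjusted p of 0.0337 or 0.0384 at -0.53.

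At 6 h, 3 of 7 genes passed both thresholds, Myod1, Myog and Rbm24, against 1.17% of 13100 genes. With Cdh15, 4 of 7 rose, against 19.6% with an adjusted p below 0.05, and the same 4 did not overlap their controls, against 36.8%. The median over the 7 genes was 0.91, beside 0.01 over all genes.

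At 12 h, 3 of 7 genes passed both thresholds, Myog, Mymk and Rbm24, against 4.95% of 13324 genes. All 7 had an adjusted p below 0.05, 6 higher and Myf5 lower, at a time when 47.5% of all genes did, and 6 of 7 did not overlap their controls, against 57.2%. Myod1 was the exception, since the C59 library of replicate 3 lay below the highest DMSO library. The median over the 7 genes was 0.61, beside 0.02 over all genes.

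At 18 h only Myf5 passed both thresholds, 1 of 7 against 1.29% of 13413 genes, and it alone had an adjusted p below 0.05, against 7.08%. Myod1, Myog and Rbm24 also did not overlap their controls, making 4 of 7 against 34.2%. The outcome at 18 h depended on C59 18 h replicate 3. Without it the biological coefficient of variation over all genes was 7.77% in place of 12.5%, genes past both thresholds numbered 194 in place of 173, and Myod1 (-0.47, adjusted p = 0.0281), Mef2c (0.53, 0.0128) and Cdh15 (-0.65, 0.00599) had an adjusted p below 0.05 beside Myf5 (-1.08, 0.00108).

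At 24 h, 0 of 7 passed both thresholds by edgeR or by DESeq2, against 0.819% of 13675 genes, with 5 of 7 at an unadjusted p below 0.05. Mymk rose and Myod1 and Rbm24 fell by less than the fold threshold, 3 of 7 against 6.44%, and 4 of 7 did not overlap, against 27.7%. The medians were -0.28 at 18 h and -0.08 at 24 h, beside 0.00 for all genes at both times.

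**Figure D2:**
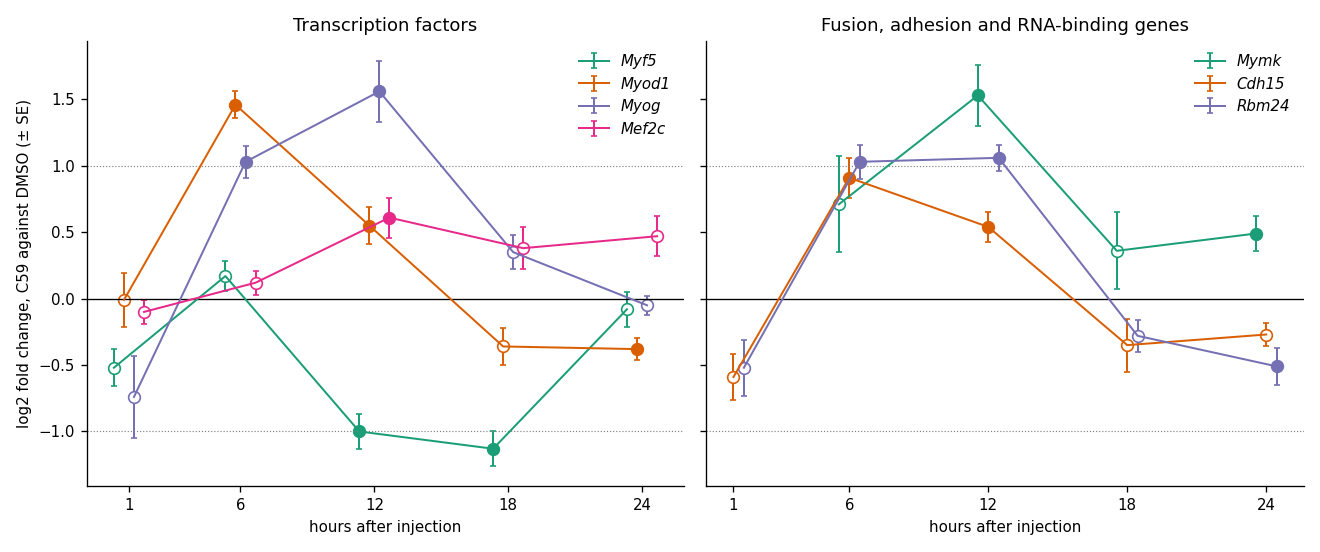
Log2 fold change of C59 against DMSO (vertical axis, bars are SE of the edgeR estimate) against hours after injection for the 4 transcription factors tested (left) and for Mymk, Cdh15 and Rbm24 (right). Filled points have an adjusted p below 0.05, open points do not, and dotted lines mark the fold threshold. Myod1 peaks at 6 h with 1.46, Myog and Mymk peak at 12 h with 1.56 and 1.53, and Myf5 lies at -1.0 and -1.13 at 12 h and 18 h.

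Myf5, the first of the commitment factors, fell at 12 h and at 18 h by edgeR. At 6 h it stood at 11, 10.9 and 12.1 CPM in DMSO and at 13, 11.5 and 13.9 CPM in C59, with overlapping ranges (log2 fold change 0.17 ± 0.11, adjusted p = 0.273). At 12 h it stood at 11.5, 12.6 and 13.5 CPM in DMSO and at 6.37, 6.81 and 5.61 CPM in C59. All 3 C59 libraries lay below all 3 controls, and the log2 fold change was -1.0 ± 0.13 (adjusted p = 1.05e-04), just short of the fold threshold. It passed that threshold without DMSO 12 h replicate 1 (-1.06), DMSO 12 h replicate 2 (-1.0) or C59 12 h replicate 2 (-1.05).

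At 18 h Myf5 stood at 11.8, 12.8 and 12.7 CPM in DMSO and at 5.56, 6.09 and 5.18 CPM in C59, again without overlap (log2 fold change -1.13 ± 0.13, adjusted p = 0.00229, and -1.19 to -1.08 when any 1 library was left out). At 24 h it had returned to 9.71, 12.0 and 13.7 CPM in C59, beside 11, 13 and 13.2 CPM in DMSO (-0.08 ± 0.13, adjusted p = 0.771). The DMSO level itself moved little after 6 h, so the fall and the return took place against a flat control. Genes of the somite and sclerotome, from which material could be carried over in dissection, summed to 253 to 275 CPM in DMSO and 215 to 309 CPM in C59 at 12 h, and to 299 to 306 CPM and 271 to 326 CPM at 18 h. Of the 6 genes of that list tested at 12 h, 1 rose (Foxc2) and 2 fell (Pax1 and Tcf15), when 47.5% of all genes had an adjusted p below 0.05. At 18 h 2 fell (Pax1 and Pax9), when 7.08% of all genes did. The part of this tissue in the Myf5 values was not tested.

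Myod1, the second commitment factor, had the highest log2 fold change of the 7 genes tested at 6 h. It stood at 13.5, 13.1 and 15.3 CPM in DMSO and at 41.2, 41.3 and 33.0 CPM in C59, where every C59 library exceeded every control by a wide margin (2.75-fold, log2 fold change 1.46 ± 0.10, adjusted p = 3.91e-07). At 12 h the controls had climbed to 24.4, 30.6 and 24.1 CPM while the C59 libraries stood at 43.7, 42.2 and 29.8 CPM, so that the ranges now met (0.55 ± 0.14, adjusted p = 0.00832). Between 6 h and 18 h the C59 mean hardly moved, from 38.5 to 38.6 and then 38.8 CPM, while the DMSO mean went from 14.0 through 26.3 to 50.5 CPM.

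At 18 h Myod1 stood at 49.4, 48.6 and 53.5 CPM in DMSO and at 30.8, 41.2 and 44.5 CPM in C59, lower in all 3 but without passing the test (-0.36 ± 0.14, adjusted p = 0.153), except without C59 18 h replicate 3, as above, or with all 30 libraries in a single fit (-0.38, 0.0356). At 24 h it stood at 65.0, 66.2 and 79.3 CPM in DMSO and at 53.1, 52.8 and 55.6 CPM in C59, and had fallen (-0.38 ± 0.08, adjusted p = 0.0179). That call was lost without DMSO 24 h replicate 3 or C59 24 h replicate 2, where the adjusted p reached up to 0.093.

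Myog, the differentiation factor, rose at 6 h and at 12 h. The change of its C59 difference between these times did not pass the test (0.53 ± 0.32, edgeR adjusted p = 0.273). At 6 h it stood at 10.6, 11.6 and 10.7 CPM in DMSO and at 20.3, 27.1 and 19.9 CPM in C59, without overlap (log2 fold change 1.03 ± 0.12, adjusted p = 5.98e-05). Without C59 6 h replicate 2, the highest of the 3, the value was 0.88, under the fold threshold. At 12 h it stood at 18.4, 36.8 and 15.8 CPM in DMSO and at 70.3, 76.9 and 61.8 CPM in C59. The C59 libraries were all far above the controls, among which replicate 2 stood apart as the highest (2.96-fold, 1.56 ± 0.23, adjusted p = 3.29e-04). Without that DMSO library the log2 fold change was 2.02, and 1.35 to 1.65 without any other.

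At 18 h Myog stood at 66.2, 64.5 and 61.5 CPM in DMSO and at 66.7, 78.0 and 96.9 CPM in C59, where the lowest C59 library lay just above the highest control (0.35 ± 0.13, adjusted p = 0.157). At 24 h the groups overlapped, at 93.1, 92.1 and 103 CPM in DMSO and 84.3, 93.0 and 101 CPM in C59 (-0.05 ± 0.07, adjusted p = 0.754). At 1 h, 1 control library was out of step, with 2.90 CPM in DMSO replicate 1 beside 8.92 and 7.93 CPM in the other DMSO libraries and 4.45, 4.42 and 2.94 CPM in C59 (-0.74 ± 0.31, adjusted p = 0.234). Without that library the difference passed both thresholds, at -1.09 with an adjusted p of 0.00943.

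Myf6 was close to undetected. It had 0 to 8 counts per library and at least 1 count in 25 of 30, with group means of 0.0433 to 0.240 CPM, and it gave no test. The 5 libraries with 0 counts allow a level of up to 0.116 to 0.163 CPM, the value of 3 counts, by counting error alone. At 18 h the groups did not overlap, with 0, 0.134 and 0.108 CPM in DMSO and 0.187, 0.15 and 0.383 CPM in C59, which are 7 and 15 counts in sum. At the other times they overlapped.

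Mef2c, the MADS-box partner, rose at 12 h. At 6 h the ranges overlapped (18.4 to 23.0 CPM in DMSO, 21.2 to 25.0 CPM in C59, log2 fold change 0.12 ± 0.09, adjusted p = 0.391). At 12 h it stood at 21.4, 30.9 and 21.1 CPM in DMSO and at 37.9, 42.7 and 31.0 CPM in C59, the lowest C59 library only just above DMSO replicate 2 (0.61 ± 0.15, adjusted p = 0.00707). It stayed above the control mean without passing the test at 18 h (0.38 ± 0.16, adjusted p = 0.195) and at 24 h (0.47 ± 0.15, adjusted p = 0.0813), where the C59 libraries spread from 62.2 through 89.5 to 114 CPM around controls of 61.8, 63.8 and 66.3 CPM. Without C59 24 h replicate 1 the value for Mef2c was 0.66 with an adjusted p of 0.00145, and with no filter 0.46 with 0.0306.

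Mef2c is also expressed outside the muscle lineage, in endothelial cells and in cartilage among others. The 8 endothelial markers summed to 363 to 397 CPM in DMSO and 449 to 502 CPM in C59 at 12 h, when 5 of 8 rose, and the 6 cartilage markers to 868 to 929 CPM and 1651 to 2356 CPM, when 5 of 6 rose. Of all genes 47.5% had an adjusted p below 0.05 at that time. At 24 h the endothelial sum was 380 to 390 CPM in DMSO and 324 to 358 CPM in C59. The part of either cell type in the Mef2c values was not tested.

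Mymk, the fusion gene, was the lowest of the tested genes at the start and the steepest. At 1 h it had 5, 7 and 8 counts in DMSO and 4, 2 and 4 counts in C59, too few to test. At 6 h it stood at 0.872, 0.990 and 0.649 CPM in DMSO and at 0.777, 1.67 and 1.76 CPM in C59, overlapping through C59 replicate 1 (log2 fold change 0.71 ± 0.36, adjusted p = 0.184). At 12 h it stood at 1.25, 2.17 and 1.58 CPM in DMSO and at 5.17, 4.75 and 4.46 CPM in C59. Here every C59 library was more than the highest control (2.88-fold, 1.53 ± 0.23, adjusted p = 3.02e-04). At 18 h the C59 libraries ran from 3.51 through 7.49 to 8.48 CPM around controls of 4.76 to 5.62 CPM (0.36 ± 0.29, adjusted p = 0.478). At 24 h Mymk had risen again without overlap, 9.93, 8.55 and 11.5 CPM in DMSO against 13.7, 12.1 and 16.1 CPM in C59 (0.49 ± 0.13, adjusted p = 0.0483). That call at 24 h held without DMSO replicate 3 or C59 replicate 2 and was lost without any other 1 of the 6 libraries, with an adjusted p of up to 0.173.

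Cdh15, the myoblast cadherin, followed Myod1 in outline at a lower amplitude. At 6 h it stood at 7.68, 11 and 8.50 CPM in DMSO and at 17.7, 19.9 and 13.6 CPM in C59 (log2 fold change 0.91 ± 0.15, adjusted p = 9.69e-04). The groups did not overlap, and the fold threshold was passed without DMSO 6 h replicate 2 (1.07) or C59 6 h replicate 3 (1.06). At 12 h it stood at 16.7, 19.9 and 16.2 CPM in DMSO and at 25.4, 29.0 and 22.3 CPM in C59 (0.54 ± 0.11, adjusted p = 0.00281). At 18 h C59 replicates 1 and 2, at 16.5 and 20.5 CPM, lay under the controls (28.3 to 30.8 CPM) and replicate 3, at 30.8 CPM, reached them (-0.35 ± 0.20, adjusted p = 0.313). At 24 h the C59 range of 27.8 to 35.4 CPM lay below the DMSO range of 35.9 to 39 CPM (-0.27 ± 0.09, adjusted p = 0.0949, and -0.37 with 0.0245 without C59 24 h replicate 3).

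Rbm24, the RNA-binding gene, was past both thresholds at 6 h and at 12 h. At 6 h it stood at 7.31, 9.58 and 10.3 CPM in DMSO and at 19.8, 18.9 and 16.5 CPM in C59 (log2 fold change 1.03 ± 0.13, adjusted p = 8.18e-05), and at 12 h at 12.3, 12.9 and 13.5 CPM in DMSO and 27.0, 29.6 and 23.8 CPM in C59 (1.06 ± 0.10, adjusted p = 1.51e-05). Neither time showed overlap. Both values lay close to the fold threshold, and went under it without DMSO 6 h replicate 1 (0.89), C59 6 h replicate 1 (0.98) or C59 12 h replicate 2 (0.99). At 18 h all 3 C59 libraries, at 16.1 to 21.3 CPM, were under the controls at 22.8 to 24.3 CPM (-0.28 ± 0.12, adjusted p = 0.198). At 24 h Rbm24 had fallen, 17.3, 21.4 and 27.6 CPM in C59 against 28.6, 29.4 and 36.5 CPM in DMSO (-0.51 ± 0.14, adjusted p = 0.0482), a call that held without C59 24 h replicate 3 and was lost without any other 1 of the 6 libraries (adjusted p up to 0.20).

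Whether the response itself changed from one time to the next was tested as the difference between the log2 fold changes at neighbouring times, over 12 libraries. From 6 h to 12 h Myf5 passed both thresholds, 1 of 7 against 1.89% of all genes, and with Myod1 2 of 7 changed, against 18.1%. The C59 difference of Myf5 went down by -1.17 ± 0.16 (adjusted p = 1.01e-04) and that of Myod1 by -0.91 ± 0.19 (adjusted p = 0.00377). Myog, with 0.53 ± 0.32, did not pass (adjusted p = 0.273), but did without DMSO 12 h replicate 2 (1.01, adjusted p = 9.52e-04). Neither Mef2c (0.48 ± 0.20, adjusted p = 0.109) nor Mymk (0.81 ± 0.44, 0.221) passed by edgeR. Mef2c passed the adjusted p without DMSO 12 h replicate 2 (0.69, adjusted p = 0.0084) or without C59 12 h replicate 3 (0.61, 0.0344).

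From 12 h to 18 h, Myog and Rbm24 passed both thresholds, 2 of 7 against 2.09%, and with Myod1 and Cdh15 4 of 7 changed, against 8.49%, all downward. The values were -1.34 ± 0.16 for Rbm24 (adjusted p = 2.48e-04), -1.21 ± 0.32 for Myog (0.0317), -0.91 ± 0.22 for Myod1 (0.0209) and -0.89 ± 0.26 for Cdh15 (0.0458). Only Rbm24 kept its adjusted p whichever of the 12 libraries was left out (at most 0.00167). Myog lost it without 9 of the 12 in turn (up to 0.0934) and kept it without DMSO 12 h replicate 2, C59 12 h replicate 3 or C59 18 h replicate 3. Cdh15 lost it without 10 of the 12 (up to 0.119), keeping it without DMSO 12 h replicate 2 or C59 18 h replicate 3. Myod1 lost it without 5 (DMSO 12 h replicate 1 or 3, C59 12 h replicate 1 or 2, DMSO 18 h replicate 3; up to 0.065), and passed the fold threshold without DMSO 12 h replicate 2 (-1.02), C59 12 h replicate 3 (-1.06) or C59 18 h replicate 3 (-1.02). For Mymk the change was -1.16 ± 0.40 (adjusted p = 0.0919), and it passed both thresholds with DESeq2 (-1.16, adjusted p = 0.0454) and with all 30 libraries in a single fit (-1.19, edgeR adjusted p = 0.0207). Without C59 18 h replicate 3, the library with the highest Myog, Mymk and Cdh15 of its group, 5 of 7 passed both thresholds, Mymk among them at -1.41 (adjusted p = 0.0268).

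From 18 h to 24 h Myf5 alone changed, 1 of 7 both against 1.27% past both thresholds and against 6.96% with an adjusted p below 0.05. Its C59 difference went up by 1.05 ± 0.18 (adjusted p = 0.00473). Without C59 18 h replicate 3 (1.00), DMSO 24 h replicate 1 (0.98) or C59 24 h replicate 3 (0.94) it was no longer past the fold threshold, with an adjusted p of at most 0.0183. Myog changed as well without C59 18 h replicate 1 (-0.53, adjusted p = 0.0415).

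The levels of Myog and Myf5, which moved in opposite directions at 12 h, can be read within each library as a ratio, which does not depend on library size. The pairs were chosen with their moves known, so the ratios are given as a description with no test. At 12 h the ratio of Myog to Myf5 was 1.6, 2.92 and 1.17 in DMSO and 11, 11.3 and 11 in C59, a log2 difference of 2.66. At 18 h it was 5.59, 5.02 and 4.85 in DMSO and 12.0, 12.8 and 18.7 in C59 (1.47), and at 6 h 0.959, 1.06 and 0.883 in DMSO and 1.56, 2.35 and 1.43 in C59 (0.85). The groups did not overlap at these 3 times, although Myf5 itself differed by only 0.17 on the log2 scale at 6 h. At 1 h and at 24 h they overlapped, with log2 differences of -0.08 and 0.03.

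The ratio of Myod1 to Pax3, the factor of the migrating progenitor, was also higher in C59 from 6 h on. In DMSO it rose from 0.111 to 0.135 at 1 h to 10.6 to 14.8 at 24 h, and in C59 it had already reached 10.9 to 12.5 at 12 h, when the controls stood at 1.53 to 2.7. At 6, 12, 18 and 24 h the log2 differences were 2.26, 2.59, 0.96 and 0.92, without overlap at any of these times, and 0.04 at 1 h, where the groups overlapped. At 18 h and 24 h Myod1 itself was lower in C59 (log2 fold changes -0.36 and -0.38), so the higher ratio there came with the lower Pax3 (-1.33 and -1.29).

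**Figure D3:**
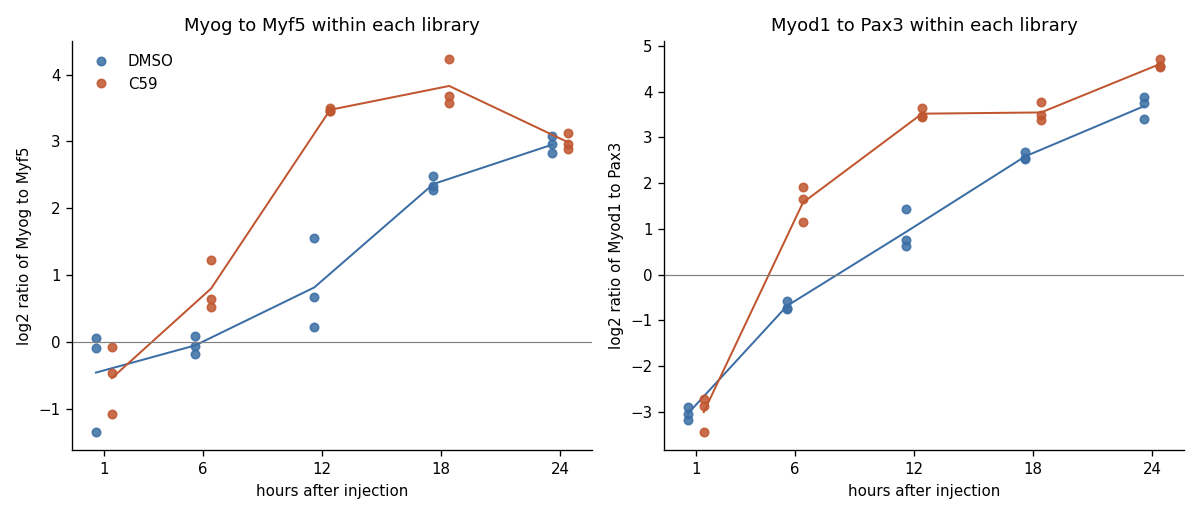
Log2 ratio within each library (vertical axes) of Myog to Myf5 (left) and of Myod1 to Pax3 (right) against hours after injection. Each point is 1 library, blue for DMSO and orange for C59, and lines join the means. Both ratios are higher in all C59 libraries than in all DMSO libraries at 6, 12 and 18 h, and at 24 h only the ratio to Pax3 is.

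Since the DMSO levels of these genes rise with time, the C59 libraries of 12 h were also set beside the later controls. These comparisons share the C59 12 h libraries with the one at 12 h. Against DMSO 18 h, 0 of 7 genes passed both thresholds by edgeR or by DESeq2, against 2.59% of 13443 genes, with 3 of 7 at an unadjusted p below 0.05, and 1 of 7 had an adjusted p below 0.05, against 31.8%. That gene was Myf5 (log2 fold change -0.96 ± 0.11, adjusted p = 3.30e-04), which passed the fold threshold without C59 12 h replicate 2 (-1.03). For the other 6 the log2 fold changes lay between -0.36 (Myod1, adjusted p = 0.0593) and 0.22 (Rbm24, adjusted p = 0.088), with SEs of 0.08 to 0.14. Myod1 had an adjusted p below 0.05 with DESeq2 (-0.37, 0.0217), with no filter (-0.35, 0.0477), with all 30 libraries (-0.39, 0.0269) and without C59 12 h replicate 1 (-0.46, 0.0352), and without C59 12 h replicate 3 so did Myog (0.22, 0.0436) and Rbm24 (0.29, 0.0318). Myog, at 61.8 to 76.9 CPM in C59 12 h, overlapped the 61.5 to 66.2 CPM of DMSO 18 h.

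Against DMSO 24 h, 1 of 7 passed both thresholds, against 4.76% of 13603 genes, and 6 of 7 had an adjusted p below 0.05, against 38.9%, all lower in C59 12 h. Mymk, at -1.02 ± 0.14, was the gene past both, and fell short of the fold threshold (-0.97) when C59 12 h replicate 3 was left out and (-0.90) when DMSO 24 h replicate 3 was. Myf5 passed both as well when C59 12 h replicate 2 was left out (-1.02) and when DMSO 24 h replicate 1 was (-1.03). Rbm24 was the gene that did not differ by this test (-0.20 ± 0.10, adjusted p = 0.162). Myog (-0.42 ± 0.08, adjusted p = 0.00119) lost its edgeR call with all 30 libraries in a single fit (-0.46, 0.0987). In share of the mean DMSO 24 h level, C59 12 h forelimb buds had 85.0% for Rbm24, 72.6% for Myog, 68.2% for Cdh15, 58.1% for Mef2c, 55.0% for Myod1, 50.4% for Myf5 and 48.1% for Mymk, where DMSO 12 h had 40.8%, 24.6%, 46.9%, 38.3%, 37.5%, 101% and 16.7%.

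**Figure D4:**
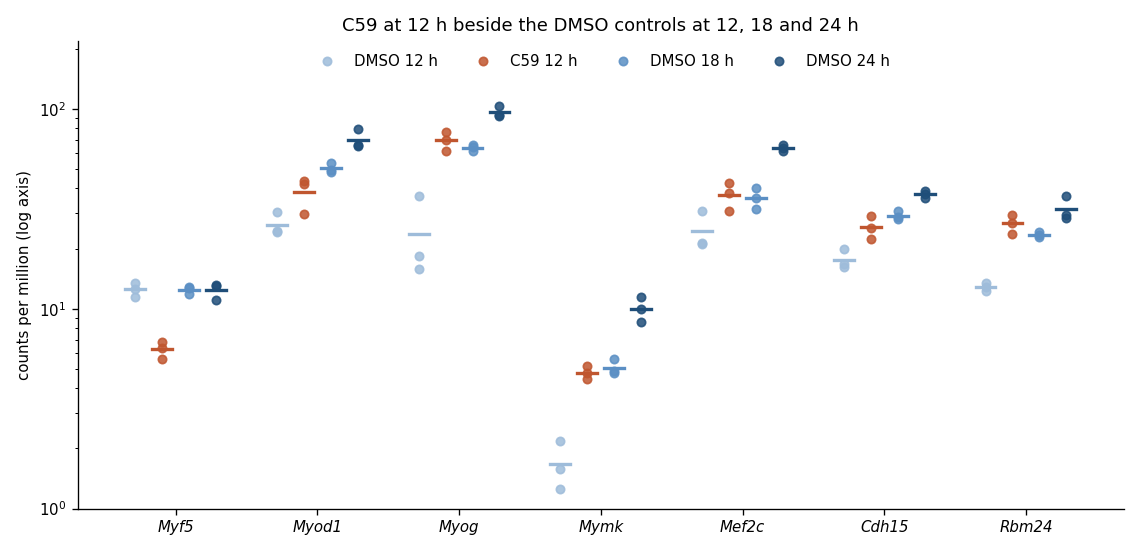
Levels in CPM (log axis) of the 7 tested genes in the 3 libraries of DMSO 12 h, C59 12 h, DMSO 18 h and DMSO 24 h, with bars at the means. The C59 12 h points of Myog, Mymk, Mef2c, Cdh15 and Rbm24 overlap those of DMSO 18 h, whereas the Myf5 points, at 5.61 to 6.81 CPM, lie below those of every control group.

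Progenitor and migration genes showed a mixed response. Of the 14 tested of 15, none rose or fell at 1 h by edgeR (median -0.10), 1 rose and 4 fell at 6 h (median 0.09), 5 rose and 6 fell at 12 h (median 0.00), and 6 fell with none rising at 18 h (median -0.55) and at 24 h (median -0.26). The share of all genes with an adjusted p below 0.05 was 2.75%, 19.6%, 47.5%, 7.08% and 6.44% at 1, 6, 12, 18 and 24 h. Pax3, which keeps the progenitor state, stood at 14.5, 11.3 and 15.7 CPM in DMSO and at 3.49, 3.87 and 2.71 CPM in C59 at 12 h. It was already lower at 6 h (log2 fold change -0.80 ± 0.10, adjusted p = 1.31e-04) and past both thresholds at 12 h (-2.04 ± 0.18, adjusted p = 8.28e-06), 18 h (-1.33 ± 0.17, 0.0036) and 24 h (-1.29 ± 0.17, 0.00124). Lbx1, which guides migration, was past both at 12 h (-1.15 ± 0.14) and 18 h (-1.61 ± 0.12), and Met, the receptor for the scatter factor that releases progenitors, at 18 h (-1.07 ± 0.14).

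Msc (0.63 ± 0.14 at 12 h), a repressor relative of the myogenic factors, and Gab1 (0.60 ± 0.05), an adaptor downstream of Met, had the highest values of the list at 12 h. Pax7, the later progenitor factor, named after its values were seen, did not pass the test at any time and stood at 12.4 ± 2.17 CPM (SD) in C59 and 13.7 ± 0.458 CPM in DMSO at 24 h. The Pax3 mean fell in DMSO too, from 29.8 CPM at 1 h to 5.45 CPM at 24 h, so its level in C59 12 h (3.35 ± 0.588 CPM) was below every DMSO group.

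E proteins and inhibitors of the myogenic factors fell more often than they rose at 6 h and 12 h, as did all genes tested. Of 13 genes, all tested, 2 fell at 1 h, 1 rose and 5 fell at 6 h, 4 rose and 8 fell at 12 h, 4 fell at 18 h and none changed at 24 h (medians -0.06, -0.09, -0.39, -0.31 and 0.04). Of all genes 2.75%, 19.6%, 47.5%, 7.08% and 6.44% had an adjusted p below 0.05 at these 5 times. Among them 1074 rose and 1491 fell at 6 h, and 2934 rose and 3396 fell at 12 h. Twist1, an inhibitor of the myogenic factors that is strongly expressed in limb mesenchyme, fell past both thresholds at 6 h (-1.39 ± 0.04) and 12 h (-1.19 ± 0.05), from 424 ± 14.1 CPM in DMSO to 185 ± 8.63 CPM in C59 at 12 h, and its relative Twist2 did so too (-1.37 ± 0.15 and -1.13 ± 0.19). Tcf12 (-0.50 ± 0.04), Tcf4 (-0.40 ± 0.07) and Tcf3 (-0.26 ± 0.04), the E proteins that pair with the myogenic factors, fell at 12 h by less (these 3 were named after their values were seen), and Heyl (0.85 ± 0.15) and Id4 (0.68 ± 0.15) had the highest values of the list at 12 h. Twist1 is itself 1 of the 5 limb mesenchyme markers, which summed to 2055 to 2094 CPM in DMSO and 1745 to 1911 CPM in C59 at 12 h. Of the other 4, Prrx1 and Prrx2 fell and Tbx5 and Pdgfra rose at that time, and the part of limb mesenchyme in the Twist1 values was not tested.

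Other fusion and adhesion genes rose more often than they fell at 6 h and 12 h. Of 17 counted of 18 listed, 13 to 16 were tested at each time, and 1 fell at 1 h, 4 rose at 6 h, 7 rose and 2 fell at 12 h, and 1 rose and 1 fell at both 18 h and 24 h (medians 0.06, 0.18, 0.40, 0.13 and -0.01). At 12 h that was 9 of 15 tested, when 47.5% of all genes had an adjusted p below 0.05. For all genes this share was 2.75%, 19.6%, 7.08% and 6.44% at 1, 6, 18 and 24 h. Mymx, which encodes myomixer, the partner of myomaker in fusion, rose at 12 h from 1.39 ± 0.299 CPM in DMSO to 5.13 ± 0.399 CPM in C59 (1.89 ± 0.21, adjusted p = 4.63e-05) and was the gene of this list past both thresholds then. Itga7, an integrin of muscle, was so at 6 h (1.46 ± 0.43, adjusted p = 0.0291). Kirrel3 (0.75 ± 0.14) followed Mymx at 12 h, and Dock5 (-0.81 ± 0.10) and Vcam1 (-0.62 ± 0.06), an adhesion receptor, were the lowest.

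In the MEF2 family and the RNA-binding relatives of Rbm24, no member passed both thresholds at any time by edgeR, where 0.283% to 4.95% of all genes did. Of 7 counted of 8 listed, 6 were tested at 6 h and 7 at the other times. Those with an adjusted p below 0.05 numbered 0, 1, 3, 0 and 2 at 1, 6, 12, 18 and 24 h (medians -0.04, -0.11, 0.04, 0.05 and -0.03). Beside these counts, 2.75%, 19.6%, 47.5%, 7.08% and 6.44% of all genes had an adjusted p below 0.05. At 12 h Celf2 (0.64 ± 0.11) and Mef2a (0.23 ± 0.08) rose, Rbm38 fell (-0.32 ± 0.07) and Mef2b, at under 1 CPM, gave -0.48 ± 0.47 (adjusted p = 0.424).

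Among sarcomere and muscle differentiation genes, the targets downstream, rises outnumbered falls from 12 h on. Of 42 genes, 27 to 40 were tested at each time. None changed at 1 h by edgeR, 1 rose and 2 fell at 6 h, and the numbers that rose at 12, 18 and 24 h were 18, 7 and 22, with none falling at the last 3 times (medians -0.12, 0.09, 1.01, 0.45 and 0.70). The shares of all genes with an adjusted p below 0.05 at those 3 times were 47.5%, 7.08% and 6.44%. In the test of the change of the C59 difference from 6 h to 12 h, 2 of 36 (Chrna1 and Cdkn1c) went up and none went down. The median was 0.69, and 18.1% of all genes had an adjusted p below 0.05 in that test. In DMSO 38 of 39 tested rose from 1 h to 24 h, with a median log2 fold change of 3.78. Over that step 59.3% of all genes had an adjusted p below 0.05. The summed level was 522 to 743 CPM in DMSO and 914 to 1106 CPM in C59 at 12 h, 852 to 1003 CPM and 1113 to 1258 CPM at 18 h, and 1335 to 1502 CPM and 1781 to 2401 CPM at 24 h, so the groups did not overlap at any of these times.

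Ttn (2.28 ± 0.51, adjusted p = 0.00397), which encodes the giant spring of the sarcomere, and Neb (1.93 ± 0.45, adjusted p = 0.00514), which encodes nebulin of the thin filament, had the highest values at 12 h, and Mybpc1 (-0.33 ± 0.19) and Myh8 (-0.23 ± 0.70) the lowest, neither of which passed the test. At 18 h Myh7 (2.08 ± 0.34), Acta1 (1.13 ± 0.27) and Unc45b (1.02 ± 0.21) were past both thresholds, 3 of 37 tested against 1.29% of all genes. At 24 h Myog did not differ between C59 and DMSO by this test. At that time 13 of the 40 genes of this list tested were past both, against 0.819% of all genes. Acta1, skeletal actin, was among them at 1.58 ± 0.18, while Neb was at 0.00 ± 0.23. Several of these genes are shared with heart. The 7 cardiac markers summed to 1.72 to 4.55 CPM in DMSO and 5.57 to 12.3 CPM in C59 at 1 h and to no more than 5.23 CPM in any library from 6 h on, with Nppa, Nkx2-5 or Tbx20 at 0 counts in some groups.

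**Figure D5:**
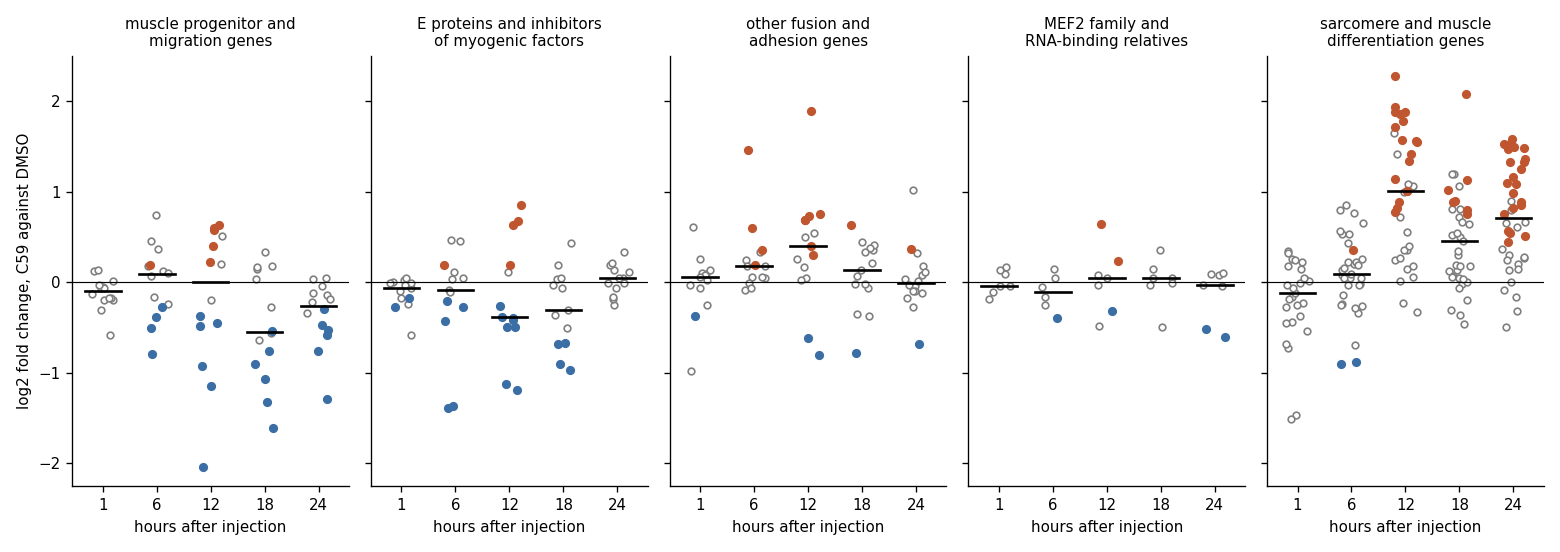
Log2 fold change of C59 against DMSO (vertical axis) for each tested gene of 5 lists, by hours after injection. Orange points rose and blue points fell with an adjusted p below 0.05, open points did not pass, and black bars are medians. The sarcomere and muscle differentiation list has medians of 1.01 at 12 h and 0.70 at 24 h with no blue point at either time, and the progenitor list has a median of -0.55 at 18 h.

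Other cell types of the bud moved at the same times, and their part in the values above was not tested. At 12 h the summed markers of ectoderm were 259 to 290 CPM in DMSO and 362 to 486 CPM in C59, those of macrophages 17.6 to 20.9 CPM and 33.1 to 34.0 CPM, those of smooth muscle 15.6 to 31.4 CPM and 48.3 to 64.6 CPM (with Acta2 the gene that rose), and those of distal limb 853 to 910 CPM and 507 to 672 CPM. Proximal limb markers overlapped, at 993 to 1066 CPM and 914 to 1180 CPM, as did erythroid markers. Neural and Schwann markers summed to 29.2 to 35.1 CPM in DMSO and 37.6 to 46.1 CPM in C59. At 6 h, when Myod1 was most raised, the sums of endothelial (428 to 440 against 430 to 447 CPM), smooth muscle (8.74 to 11.2 against 6.95 to 12.5 CPM) and macrophage markers (17.9 to 18.1 against 15.8 to 24.7 CPM) overlapped between the groups, and those of cartilage (735 to 800 against 905 to 1079 CPM) and distal limb (799 to 821 against 620 to 669 CPM) did not. Limb mesenchyme markers (2024 to 2114 CPM in DMSO, 1722 to 1814 CPM in C59) did not overlap at 6 h either.

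Over the 30 libraries the levels of the tested genes other than Myf5 went together. The Pearson correlation of log2(CPM + 1) was 0.97 between Myod1 and Cdh15 and between Myod1 and Rbm24, 0.96 between Myog and Cdh15 and 0.95 between Myog and Mymk. Mef2c had 0.94 with Mymk, 0.80 with Cdh15 and 0.75 with Myod1 and with Rbm24, the lowest among these 6 genes. Myf5 had 0.20 to 0.45 with them. These libraries share the rise with time, so the values describe a common course and nothing more.

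Outside the set, among 12542 genes with a mean of at least 1 CPM, the genes whose course was most like that of Myog were Atp2a1 (0.988), which encodes the calcium pump of fast muscle, St8sia2 (0.982) and Islr (0.979), and for Mymk they were Olfml2b (0.988), Timp2 (0.983) and Chrnb1 (0.980), a subunit of the acetylcholine receptor. For Myod1 they were Fgfr4 (0.967), a receptor of myoblasts, Lfng (0.962) and Irf2bpl (0.955), for Cdh15 Atp2a1 (0.967), Vgll2 (0.965) and Synpo2l (0.965), for Rbm24 Stard13 (0.954), Tmtc1 (0.949) and Fgfr4 (0.949), and for Mef2c Sntb1 (0.973), Tmem229b (0.967) and Deptor (0.966). For Myf5 they were Vcam1 (0.900), Hey1 (0.871), a target of Notch signalling, and Clmp (0.825). For Myf6 the highest values were lower, Gstm5 (0.625), Smo (0.590) and Ptp4a3 (0.582), and at 0 to 8 counts per library they carry little information.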

How the data were processed

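Polyadenylated RNA of forelimb buds was measured in 30 libraries, 3 for each of 10 groups. The counts are raw reads per gene that the authors made while mapping with STAR 2.7.0e to mm10, after trimming with Cutadapt 1.16. Whether strand was used in counting is not given in the sources used here. The deposited FPKM values were made by the authors with Cufflinks 2.2.1, per length and depth.

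From the counts, protein-coding autosomal genes (GENCODE M21) passing filterByExpr (minimum count 10, minimum total 15) were tested with edgeR 4.0.16 (R 4.3.3), quasi-likelihood F test, TMM, Benjamini-Hochberg, on the 6 libraries of a comparison or the 12 of a change of effect. SEs are the log2 fold change over the square root of F. CPM use TMM-scaled library sizes. Of the counts, 0.0068% fell on 205 genes without a GENCODE match. Ratios within libraries are given without a test.

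The genes named were the 8 genes, Axin2, the 2 highest and 2 lowest of each list at 12 h, called genes where 5 or fewer were called, and the 3 genes most like each of the 8. The 8 genes, the lists and the tests were chosen with earlier results of these data known. Alternatives were DESeq2 1.42.0, DESeq2's size factors, no filter, all counted genes, all 30 libraries in a single fit, limma 3.58.1 on log2(FPKM + 1) and log2(FPKM + 0.1), no minimum fold change, a replicate block, and each library left out. No 2 replicates agreed within sampling noise (chi-square per degree of freedom 3.31 to 42.2). The code was tested on simulated data. The upper limits given for Myf6 cover counting error only.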

Additional observations from a re-analysis of the deposited data

Results flagged for a closer look

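In 7 cases the C59 difference of a gene changed between neighbouring times by edgeR's test of the change itself, over 12 libraries. From 6 h to 12 h the log2 difference of Myf5 changed by -1.17 and that of Myod1 by -0.91. From 12 h to 18 h it changed by -0.91 for Myod1, by -1.21 for Myog, by -0.89 for Cdh15 and by -1.34 for Rbm24. From 18 h to 24 h it changed by 1.05 for Myf5. The libraries on which these calls depend are named above with the values.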

How the results depend on the processing

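The counts of genes past both thresholds stayed within 1.5 times their main value in 193 of the settings tried and moved beyond it in 50. With limma on log2(FPKM + 1), which shrinks low genes, the number was 1 at 6 h, 0 at 18 h, 0 for both the 6 h to 12 h and the 18 h to 24 h change, 1 for DMSO 6 h against 1 h, 0 for DMSO 12 h against 6 h and 0 for C59 12 h against DMSO 24 h. The last 2 comparisons also gave 0 with log2(FPKM + 0.1), and DMSO 12 h against 6 h gave 0 with all counted genes and with DESeq2. With no minimum fold change the number was 7 at 12 h, 3 at 24 h, 2 and 4 for the changes from 6 h to 12 h and from 12 h to 18 h, 5, 3, 6 and 6 for the successive DMSO steps, and 1 and 6 for C59 12 h against DMSO 18 h and 24 h, by construction. Leaving out 1 library at a time gave 0 to 1 at 1 h, 2 to 4 at 6 h, 3 to 4 at 12 h, 1 at 18 h and 0 at 24 h. It gave 1 to 2, 1 to 5 and 0 to 1 for the 3 changes, 6 for DMSO 24 h against 1 h, 1 to 2, 0 to 2, 1 to 3 and 0 to 1 for the DMSO steps, and 0 to 1 and 0 to 2 for C59 12 h against DMSO 18 h and 24 h.

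Signs turned only for log2 fold changes near 0, none with an adjusted p below 0.05. With limma at both pseudocounts (1 and 0.1), Myod1 from 18 h to 24 h gave 0.01 and 0.01, Myf5 gave 0.04 and 0.05 for DMSO 18 h against 12 h and 0.01 and 0.02 for 24 h against 18 h, and in C59 12 h against DMSO 18 h Mymk gave 0.01 and 0.01 and Mef2c -0.04 and -0.05. Leaving out 1 library gave -0.13 to 0.17 for Myod1 at 1 h, -0.18 to 0.04 for Myf5 and -0.10 to 0.01 for Myog at 24 h, and -0.06 to 0.18 for Rbm24 from 6 h to 12 h. From 18 h to 24 h it gave -0.17 to 0.09 for Myod1, -0.18 to 0.37 for Mymk, -0.13 to 0.28 for Mef2c and -0.11 to 0.37 for Cdh15. For Myf5 it gave -0.06 to 0.05 and -0.06 to 0.07 over the last 2 DMSO steps, and in C59 12 h against DMSO 18 h -0.13 to 0.02 for Mymk and -0.04 to 0.19 for Mef2c. The cause was not tested.

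Replicate numbers did not pair the libraries. Deviations from the group means of same-numbered DMSO and C59 libraries correlated at -0.26 to 0.15 over 15 pairs, and at no time was every pair above 0.1. With a replicate block the number past both thresholds was 2 in place of 3 for DMSO 6 h against 1 h, where Mymk gave 1.54 with an adjusted p of 0.055, and the block gave 0, 3, 3, 1 and 0 at 1, 6, 12, 18 and 24 h as without it. With the block Mef2c had an adjusted p of 0.0361 at 24 h and 0.0159 for the change from 6 h to 12 h, Myod1 0.0297 in C59 12 h against DMSO 18 h, Rbm24 0.0303 for DMSO 12 h against 6 h, and Cdh15 0.0569 for the change from 12 h to 18 h.

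The 3 edgeR calls at 24 h depended on the setting. With all 30 libraries in a single fit the adjusted p was 0.0866 for Myod1 and 0.182 for Mymk, with all counted genes 0.0596 for Mymk and 0.0619 for Rbm24, and with limma on log2(FPKM + 1) 0.0654 for Mymk and 0.114 for Rbm24. At 12 h Mef2c had 0.0521 and 0.0508 with limma at the 2 pseudocounts. Depth limits Myf6 throughout and Mymk at 1 h.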
